A study of Rattus norvegicus with 6 samples.

Results

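The genes described here are the 3 transforming growth factor beta (TGF-beta) ligands TGFB1, TGFB2 and TGFB3, the latent binding protein gene LTBP1, the receptor genes TGFBR1, TGFBR2 and TGFBR3, and the signal transducer genes SMAD2, SMAD3 and SMAD7. They were found by their human symbols in the authors' deposited comparison tables, which pair those 10 symbols with 11 of the 26319 rat Ensembl genes counted. TGFBR1 has 2 gene IDs and the other symbols 1 each. The family was chosen by the level of TGFB3, which was known to differ between transgenic and wild-type glomeruli in these same libraries. Its values against wild type are therefore given as a description, with no test, and the other members enter by name.

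Glomeruli, which filter the blood in the kidney, were isolated from Sprague Dawley rats of an advanced cohort, and their RNA was sequenced in 3 groups of 2 libraries, 6 in all. AT1R Tg AC1903 rats, aged 23.0 and 20.4 weeks in replicates 1 and 2, carried a transgene for the angiotensin II type 1 receptor (AT1R) and received AC1903, a small molecule inhibitor of the cation channel TRPC5. AT1R Tg vehicle rats, aged 20.4 and 17.4 weeks, carried the same transgene, and WT rats, aged 20.4 and 21.9 weeks, did not. WT rats are labelled as vehicle-treated too. By the labels of genotype and treatment, AT1R Tg vehicle against WT therefore differs in the transgene, and AT1R Tg AC1903 against WT in transgene and drug. The labels do not name the promoter that drives the transgene, nor say whether a library came from 1 rat or from several. The 2 ages given differ within each group, and the ages also differ between groups, so no comparison is free of age.

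TGF-beta ligands are secreted in a latent form, held by their own propeptide and tied to the matrix through latent TGF-beta binding proteins. Once released, a ligand binds the type II receptor TGFBR2, which activates the type I receptor TGFBR1, and TGFBR1 then phosphorylates SMAD2 and SMAD3. SMAD7 is an inhibitor that this signal itself induces, and TGFBR3 (betaglycan) is a co-receptor that presents ligand. In the glomerulus the pathway is best known for matrix production and podocyte injury.

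The libraries held 12325515 to 14230770 expected counts in the transgenic groups and 25045081 and 36026772 in WT, so depth differed with genotype. All 16 podocyte marker genes looked up were detected, and their summed level was 9850 and 12867 CPM (normalised counts scaled to a common library size) in AT1R Tg AC1903, 15728 and 8368 CPM in AT1R Tg vehicle and 14712 and 12396 CPM in WT. Those 3 ranges of sums overlapped. Of the 16 genes, 14 had a negative log2 difference in vehicle against WT, with a median of -0.21 beside -0.03 over all genes. In AC1903 against WT 13 of the 16 were negative, with a median of -0.16 beside 0.00 over all genes. In edgeR 0 of the 16 passed in either comparison. Proximal tubule markers, 15 genes, summed to 5761 and 5709 CPM with AC1903 and 5581 and 10944 CPM with vehicle, every one above both WT libraries, the lower of which stood at 2361 CPM. All 15 had a positive log2 difference in vehicle against WT, with a median of 1.36. All 15 macrophage markers were higher on average in AC1903 than in vehicle, and they summed to 429.3 and 994.2 CPM with AC1903, 259.7 and 335.6 CPM with vehicle and 282.6 and 470.5 CPM in WT. Glomerular endothelial markers, 15 genes, summed to 9482 and 7372 CPM with AC1903, 6766 and 7131 CPM with vehicle and 9524 and 9463 CPM in WT, so both vehicle libraries lay below both WT libraries. Of the 15, 14 had a negative log2 difference in vehicle against WT, with a median of -0.35. The 9 genes listed as fibroblast and osteogenic markers summed to 919.5 and 1021 CPM with AC1903, 1825 and 1013 CPM with vehicle and 513.2 and 626.6 CPM in WT. Every transgenic sum lay above WT. In vehicle replicate 1 THY1, SPP1, COL1A1 and ALPL gave 534.4, 503.2, 367.8 and 341.0 CPM of that sum. COL1A2, DCN and COL3A1 gave 20.1, 8.28 and 3.75 CPM there. Which cells carried these transcripts was not tested. In vehicle against WT 8 of the 9 genes of that list had a positive log2 difference, with a median of 1.11. RUNX2 and ALPL passed there (adjusted p = 0.00493 and 0.0154 in edgeR). The list was chosen with earlier results of these data known, so nothing is read from those calls. In AC1903 against WT 6 of the 9 were positive, and COL1A2, COL3A1 and DCN had log2 differences of -0.54, -0.68 and -0.67. In bulk tissue fewer cells of a type and less RNA per cell cannot be told apart.

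TGFB3 (ENSRNOG00000009867) was read at 73.1 and 85.0 CPM in AT1R Tg AC1903 replicates 1 and 2, at 131.5 and 77.4 CPM in AT1R Tg vehicle, and at 10.1 and 10.1 CPM in WT. All 4 transgenic libraries lay above both WT libraries, and those of the transgenic groups overlapped with each other. In expected counts these are 879 and 1063 with AC1903, 1858 and 951 with vehicle and 282 and 373 in WT, so the shallower transgenic libraries held more TGFB3 reads than the deeper WT libraries. The log2 difference was 3.37 with SE 0.26 for vehicle against WT, a fold of 10.3, and 2.97 with SE 0.26 for AC1903 against WT, a fold of 7.81. Both rest on the same WT libraries. Ranked by log2 difference among the 13426 genes tested, TGFB3 stood at place 31 from the top in vehicle against WT and at place 48 in AC1903 against WT. In the authors' deposited table of vehicle against WT its log2 fold change was 3.39.

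**Figure D1:**
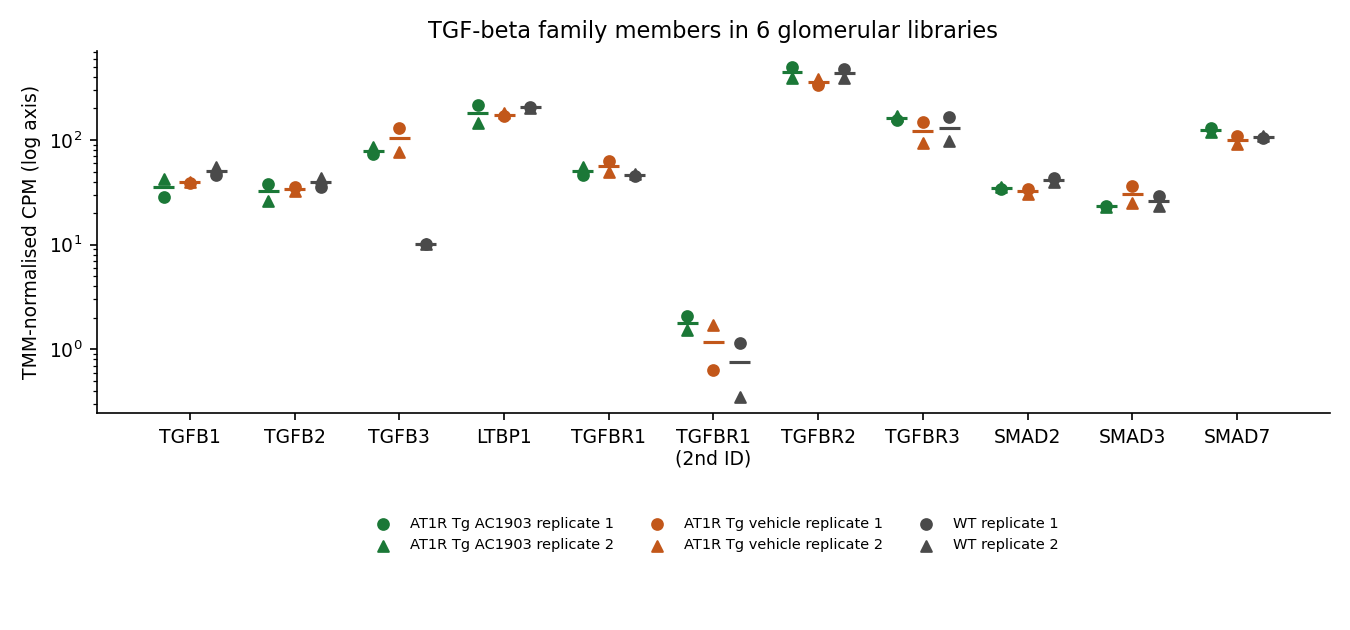
TMM-normalised CPM (log axis) of each member gene ID in the 6 libraries, with AT1R Tg AC1903 left, AT1R Tg vehicle in the middle and WT right; circles are replicate 1, triangles replicate 2 and dashes group means (n = 2). The transgenic libraries of TGFB3 sit between 73.1 and 131.5 CPM and the WT libraries at 10.1 CPM, a 13-fold range over the 6 libraries, beside 5.9-fold for the smaller TGFBR1 ID and at most 1.91-fold for the other IDs.

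Whether AC1903 altered TGFB3 in transgenic glomeruli was asked by comparing it with vehicle. The means were 79.0 ± 8.38 CPM with AC1903 and 104.4 ± 38.2 CPM with vehicle (SD, n = 2 each). The log2 difference was -0.40 with SE 0.24 and a 95% interval of -0.95 to 0.15, and it did not pass in edgeR's quasi-likelihood test (adjusted p = 0.664). The vehicle libraries alone were 1.70-fold apart. Vehicle replicate 1 set the direction: without it the log2 difference was 0.03. Against WT, leaving out that library gave a log2 difference of 2.93.

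The other 2 ligands differed from WT by far less than TGFB3. TGFB1 (ENSRNOG00000020652), the ligand most studied in kidney fibrosis, stood at 28.7 and 42 CPM in AT1R Tg AC1903, at 39.1 and 39.7 CPM in AT1R Tg vehicle and at 46.1 and 54.8 CPM in WT. Every transgenic library lay below both WT libraries. The log2 difference was -0.36 with SE 0.21 for vehicle against WT (adjusted p = 0.562 in edgeR) and -0.51 with SE 0.21 for AC1903 against WT (adjusted p = 0.433), so neither passed.

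TGFB2 (ENSRNOG00000002418), a ligand active in heart and eye development, stood at 38.4 and 26.1 CPM in AT1R Tg AC1903, at 35.8 and 32.6 CPM in AT1R Tg vehicle and at 35.8 and 43.2 CPM in WT. A vehicle library stood level with the lower WT library and the other below it, and the AC1903 libraries lay on both sides of it. Its log2 difference was -0.21 with SE 0.22 for vehicle against WT (adjusted p = 0.774 in edgeR) and -0.29 with SE 0.22 for AC1903 against WT (adjusted p = 0.638). The 95% intervals against WT reached up to 0.12 for TGFB1 and 0.29 for TGFB2 in the vehicle group.

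Ratios within a library do not depend on how libraries are scaled, so TGFB3 was also set against each of the other ligands there. The values are ratios of expected counts with no correction for transcript length, and their difference between libraries, not their size, is what can be compared. TGFB3 over TGFB1 was 2.55 and 2.02 in AT1R Tg AC1903, 3.37 and 1.95 with vehicle and 0.219 and 0.185 in WT. TGFB3 over TGFB2 was 1.90 and 3.26 with AC1903, 3.67 and 2.37 with vehicle and 0.283 and 0.234 in WT. The mean log2 ratio of TGFB3 to TGFB1 lay 3.67 higher in vehicle than in WT and 3.50 higher in AC1903 than in WT. For TGFB2 over TGFB1 the same differences were 0.15 and 0.22, less than the spread within AC1903, where that ratio was 1.34 and 0.62. TGFB3 made up 52.1% and 55.5% of the counts of the 3 ligands with AC1903, 63.7% and 51.7% with vehicle and 11.0% and 9.35% in WT.

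**Figure D2:**
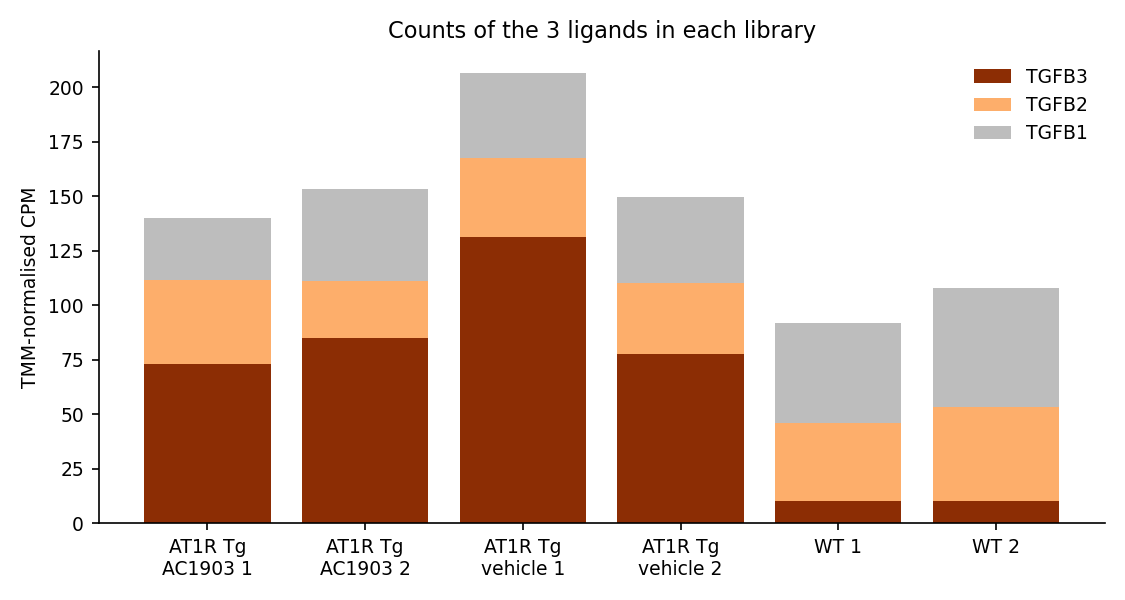
TMM-normalised CPM of TGFB3, TGFB2 and TGFB1, stacked, in each library, with the AT1R Tg groups left of WT and no correction for transcript length. The sum runs from 140.2 to 206.4 CPM in transgenic libraries and is 92.1 and 108.1 CPM in WT, with TGFB3 the largest segment in each transgenic library.

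The 250 bases before the annotated start of each ligand gene are shown because only 1 of these 3 transcripts differed by this much. They are RefSeq sequences of the build GRCr8, which is not the build of the counts, read 5′ to 3′ along the gene. Capitals would mark a match to CAGAC (the SMAD box), TGTGGT (the RUNX core), TGACGTCA (the cyclic AMP response element, CRE), TGANTCA (AP-1) or TATAAA (the TATA box), searched on both strands, and none of these 3 windows holds any.
Tgfb3, chr6:111456947-111457196, minus strand: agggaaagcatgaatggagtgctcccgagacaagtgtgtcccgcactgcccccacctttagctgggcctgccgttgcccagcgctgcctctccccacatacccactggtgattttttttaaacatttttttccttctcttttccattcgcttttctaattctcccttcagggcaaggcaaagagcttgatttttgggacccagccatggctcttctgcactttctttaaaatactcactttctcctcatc
Tgfb1, chr1:90324062-90324311, plus strand: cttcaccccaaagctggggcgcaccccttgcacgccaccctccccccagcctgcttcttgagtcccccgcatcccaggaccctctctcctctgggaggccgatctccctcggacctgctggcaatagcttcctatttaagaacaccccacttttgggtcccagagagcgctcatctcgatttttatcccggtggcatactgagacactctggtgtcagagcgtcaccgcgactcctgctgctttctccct
Tgfb2, chr13:100792686-100792935, minus strand: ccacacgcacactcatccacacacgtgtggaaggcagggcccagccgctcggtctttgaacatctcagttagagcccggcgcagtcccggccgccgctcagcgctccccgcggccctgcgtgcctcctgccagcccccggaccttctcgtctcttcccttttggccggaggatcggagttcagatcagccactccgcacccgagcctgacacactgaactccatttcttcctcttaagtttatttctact
Over all 33469 RefSeq promoter windows of that length 42.9% hold CAGAC, 14.5% TGTGGT, 1.59% TGACGTCA, 6.34% TGANTCA and 12.9% TATAAA. G and C make up 48.8% of the TGFB3 window, 60.0% of the TGFB1 window and 61.6% of the TGFB2 window, against a median of 51.2% over all windows. RefSeq gave 11 windows for the 10 member symbols. The LTBP1 window was the one among them with a match, a CRE 101 to 108 bases before the start followed by a SMAD box on the other strand 95 to 99 bases before it, without overlap. The start sites used in these glomeruli were not measured, and a match or its lack says nothing about binding.
Ltbp1 stretch with both matches in capitals: tgccTGACGTCAcGTCTGccgcag

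LTBP1 (ENSRNOG00000033090), which ties latent TGF-beta to the matrix, stood at 214.0 and 146.0 CPM in AT1R Tg AC1903, at 169.8 and 180.5 CPM in AT1R Tg vehicle and at 206.7 and 202.1 CPM in WT. The vehicle libraries lay below WT and the AC1903 libraries lay on both sides of it. Vehicle against WT gave a log2 difference of -0.22 and SE 0.20 (adjusted p = 0.731 in edgeR), and AC1903 against WT gave -0.18 with SE 0.20 (adjusted p = 0.763).

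Among the receptors, TGFBR2 (ENSRNOG00000013265), the type II receptor that binds ligand, stood at 495.6 and 394.7 CPM in AT1R Tg AC1903, at 338.1 and 382.8 CPM in AT1R Tg vehicle and at 471.7 and 395.1 CPM in WT. The vehicle libraries were the lowest of the 6, with a log2 difference of -0.27 and SE 0.20 against WT (adjusted p = 0.664 in edgeR) and of 0.30 with SE 0.20 for AC1903 against vehicle (adjusted p = 0.674). The summed endothelial markers were also lowest in the vehicle libraries, and the part of endothelial cells in the TGFBR2 level was not tested. TGFBR3 (ENSRNOG00000002093), the co-receptor, stood at 154.0 and 170.3 CPM with AC1903, at 148.4 and 93.3 CPM with vehicle and at 164.1 and 98.0 CPM in WT. Its libraries differed 1.59-fold within vehicle and 1.67-fold within WT, more than the group means did, and AC1903 against vehicle gave a log2 difference of 0.42 with SE 0.29 (adjusted p = 0.683).

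TGFBR1, the type I receptor kinase, was counted under 2 IDs. ENSRNOG00000007036 stood at 46.2 and 55.2 CPM in AT1R Tg AC1903, at 62.9 and 49.9 CPM in AT1R Tg vehicle and at 44.8 and 46.9 CPM in WT. ENSRNOG00000050760 stood at 2.08 and 1.52 CPM with AC1903, at 0.637 and 1.71 CPM with vehicle and at 1.15 and 0.352 CPM in WT. The expected counts of both IDs had fractional parts, and their sum was a whole number within 0.01 in all 6 libraries: 580 and 709 with AC1903, 898 and 634 with vehicle and 1279 and 1743 in WT. The smaller ID took 0.773% to 4.24% of that sum, so its values depend on how reads were divided between the IDs and are uncertain. Summed over both, TGFBR1 stood at 48.2 and 56.7 CPM with AC1903, at 63.5 and 51.6 CPM with vehicle and at 45.9 and 47.2 CPM in WT. Every transgenic sum lay above both WT sums. For the larger ID the log2 difference was 0.30 with SE 0.18 for vehicle against WT (adjusted p = 0.573 in edgeR) and 0.14 with SE 0.18 for AC1903 against WT (adjusted p = 0.792), and neither passed.

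SMAD2 (ENSRNOG00000018140), a transducer phosphorylated by TGFBR1, stood at 33.7 and 35.6 CPM in AT1R Tg AC1903, at 33.9 and 30.7 CPM in AT1R Tg vehicle and at 43.6 and 40.0 CPM in WT. Every transgenic library lay below both WT libraries. The log2 difference was -0.37 with SE 0.16 for vehicle against WT (adjusted p = 0.406 in edgeR) and -0.27 with SE 0.16 for AC1903 against WT (adjusted p = 0.548). SMAD3 (ENSRNOG00000008620), the transducer that binds DNA in target promoters, stood at 23.6 and 22.9 CPM with AC1903, at 36 and 25.2 CPM with vehicle and at 29.0 and 23.5 CPM in WT. The vehicle and WT libraries overlapped, and the AC1903 libraries lay below both vehicle libraries with a log2 difference of -0.40 and SE 0.22 (adjusted p = 0.661).

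SMAD7 (ENSRNOG00000018359), the inhibitor induced by the pathway, stood at 128.9 and 120.4 CPM in AT1R Tg AC1903, at 109.3 and 92.2 CPM in AT1R Tg vehicle and at 103.8 and 109.0 CPM in WT. The AC1903 libraries were the highest of the 6, and vehicle overlapped WT. Vehicle against WT gave a log2 difference of -0.08 with SE 0.16 (adjusted p = 0.894 in edgeR), and AC1903 against vehicle gave 0.31 with SE 0.16 (adjusted p = 0.642). The 95% interval for vehicle against WT ran from -0.43 to 0.28.

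**Figure D3:**
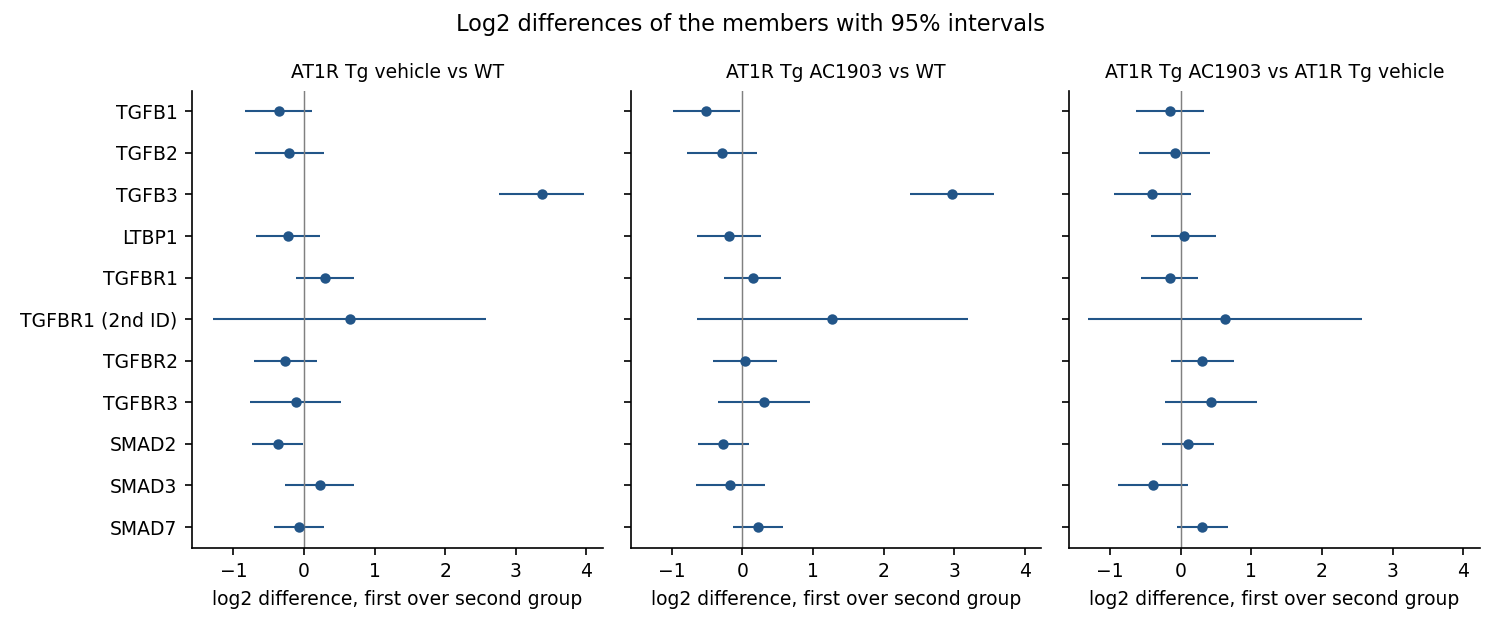
Log2 differences of the 11 member IDs in AT1R Tg vehicle against WT (left), AT1R Tg AC1903 against WT (middle) and AT1R Tg AC1903 against AT1R Tg vehicle (right), as points with 95% intervals from the fit over all genes. TGFB3 stands at 3.37 and 2.97 against WT and at -0.40 between the transgenic groups, and the other IDs lie between -0.51 and 1.27.

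All 11 IDs passed the filter on low counts. TGFB3 aside, 0 of the other 10 passed an adjusted p of 0.05 in edgeR in vehicle against WT, where 0.0745% of all genes passed, or 4.17% with DESeq2. In AC1903 against WT 0 of those 10 passed, beside 0.0372% of all genes, or 1.35% with DESeq2. DESeq2 and limma-voom called none of the 10 in either comparison. Before adjustment in edgeR, SMAD2 alone of the 10 was under 0.05 in vehicle against WT, and TGFB1 alone in AC1903 against WT. In AC1903 against vehicle 0 of 11 passed in edgeR, as did 0.00% of all genes, with 1090 genes at an unadjusted p under 0.05. DESeq2 called 67 genes there (0.499%) and limma-voom 0, and neither called a member.

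Without TGFB3, the other 10 IDs had a median log2 difference of -0.16 and a range of -0.37 to 0.65 in vehicle against WT, where the median over all genes was -0.03. In AC1903 against WT the median was -0.07 with a range of -0.51 to 1.27, beside 0.00 over all genes. In AC1903 against vehicle the median was 0.07 with a range of -0.40 to 0.62, beside -0.02. The vehicle libraries did not overlap WT in 6 of those 10 IDs, where 44.0% of all genes tested do not overlap. The 6 include TGFB2, whose higher vehicle library and lower WT library both round to 35.8 CPM. Of them, 1 was higher and 5 were lower, beside 20.6% higher and 23.4% lower over all genes. AC1903 did not overlap WT in 4, beside 47.7% of all genes, with 2 higher and 2 lower, beside 24.2% and 23.5%. AC1903 did not overlap vehicle in 4, beside 38.3% of all genes, with 3 higher and 1 lower, beside 19.9% and 18.4%.

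To see whether other genes of the pathway differed, 7 lists of 144 symbols were looked up. Of those symbols 110 had an ID in the authors' tables, which gave 111 gene IDs tested outside the members. The rest could not be looked up. In vehicle against WT 1 of the 111 was higher and 0 lower by edgeR at an adjusted p of 0.05, where 0.0745% of all genes passed. The median log2 difference was -0.01, beside -0.03 over all genes. In AC1903 against WT and in AC1903 against vehicle 0 of 111 passed, beside 0.0372% and 0.00% of all genes, with medians of 0.01 and -0.05. An unadjusted p under 0.05 was found for 17 of the 111 in vehicle against WT, or 15.3%, beside 11.9% of all genes. The count was 15, or 13.5%, in AC1903 against WT, beside 11.1% of all genes, and 10, or 9.01%, in AC1903 against vehicle, beside 8.12%.

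The call was GDF5 (ENSRNOG00000050123), a growth and differentiation factor of the bone morphogenetic protein branch known for joint formation. It stood at 10.1 and 11.1 CPM in AT1R Tg AC1903, at 19.7 and 9.77 CPM in AT1R Tg vehicle and at 1.33 and 1.00 CPM in WT, with all transgenic libraries above WT. The log2 difference was 3.67 with SE 0.41 for vehicle against WT (adjusted p = 0.031 in edgeR) and 3.19 with SE 0.41 for AC1903 against WT (adjusted p = 0.0568). The gene lists were chosen with earlier results of these data known, so nothing is read from that call. Of 28 family ligands listed, 13 had an ID and were tested, and the 12 other than GDF5 did not pass in any comparison. MSTN, myostatin, named after its values were seen, had the lowest log2 difference of the ligands, on few counts. It stood at 0.333 and 1.84 CPM in AT1R Tg AC1903, at 0.212 and 0.244 CPM in AT1R Tg vehicle, which is 3 expected counts in each, and at 1.97 and 1.87 CPM in WT (adjusted p = 0.235 for vehicle against WT in edgeR).

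Of 43 listed transcripts known to be induced by TGF-beta, 31 had an ID and were tested. None of the 31 passed in vehicle against WT, with 17 positive and 14 negative and a median log2 difference of 0.07. In AC1903 against vehicle none passed either, 11 were positive and 20 negative, and the median was -0.20. COL1A1 (ENSRNOG00000003897), the fibrillar collagen alpha chain, had the smallest p of the list. It stood at 135.9 and 120.9 CPM in AT1R Tg AC1903, at 367.8 and 131.3 CPM in AT1R Tg vehicle and at 47.1 and 48.3 CPM in WT. All transgenic libraries lay above WT, by a log2 difference of 2.39 with SE 0.41 in vehicle (adjusted p = 0.134 in edgeR) and 1.43 with SE 0.40 in AC1903 (adjusted p = 0.34). COL1A1 is itself part of the fibroblast and osteogenic list, so that sum is no separate measure for it, and the part of such cells in its level was not tested. NOX4, an oxidase that makes hydrogen peroxide, stood at 57.4 and 63.5 CPM with AC1903, at 57.7 and 121.8 CPM with vehicle and at 38.1 and 18.4 CPM in WT (adjusted p = 0.18 for vehicle against WT). COL1A2, which pairs with COL1A1 in type I collagen, stood at 9.90 and 13.5 CPM with AC1903, at 20.1 and 18.1 CPM with vehicle and at 16.1 and 17.8 CPM in WT (adjusted p = 0.82 for vehicle against WT).

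Of the same 31, 5 had all 4 transgenic libraries above both WT libraries, or 16.1%, beside 11.3% of all genes tested, and these were COL1A1, COL5A1, TIMP3, NOX4 and CDH2. The reverse held for 3, SNAI1, ITGA5 and PDGFB, or 9.68%, beside 10.2% of all genes. These genes are listed by that count, chosen after their values were seen. NOX4 and CDH2 were highest in vehicle replicate 2, at 121.8 and 43.6 CPM, where the proximal tubule sum was also highest. COL1A1 and COL5A1 were highest in vehicle replicate 1 and TIMP3 in AC1903 replicate 2. The part of cell composition in their levels was not tested.

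**Figure D4:**
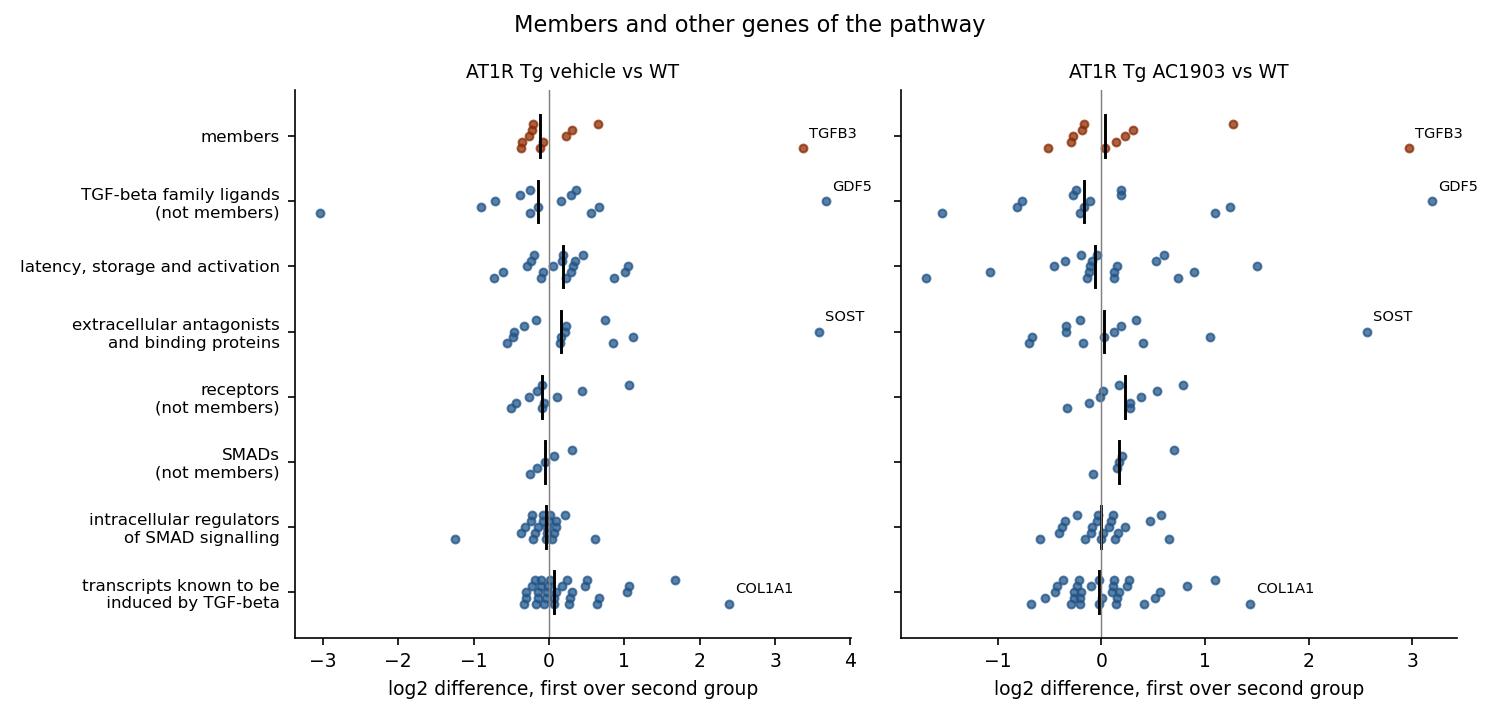
Log2 differences of the members (brown) and of 7 lists of other pathway genes (blue) in AT1R Tg vehicle against WT (left) and AT1R Tg AC1903 against WT (right), with each list's median as a black bar. TGFB3, GDF5, SOST and COL1A1 stand to the right at 3.37, 3.67, 3.58 and 2.39 in the left panel and MSTN to the left at -3.04, a fitted value that rests on 3 counts in each vehicle library, while the list medians lie between -0.15 and 0.19.

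No gene of the other 5 lists passed in any comparison. Of 18 tested genes of latency, storage and activation, ITGB3, the integrin beta 3 chain, stood at 12.7 and 11.5 CPM in AT1R Tg AC1903, at 8.07 and 7.49 CPM in AT1R Tg vehicle and at 4.67 and 3.90 CPM in WT. The 3 groups did not overlap, and the log2 difference against WT was 0.86 with SE 0.27 for vehicle (adjusted p = 0.232 in edgeR) and 1.5 with SE 0.27 for AC1903 (adjusted p = 0.191). MMP9, a protease that can release latent TGF-beta, stood at 80.9 and 85.2 CPM with AC1903, at 90.2 and 121.0 CPM with vehicle and at 129.8 and 220.0 CPM in WT (adjusted p = 0.29 for vehicle against WT). PLAU stood at 78.9 and 53.2 CPM with AC1903, at 53.4 and 110.7 CPM with vehicle and at 45.8 and 33.5 CPM in WT (adjusted p = 0.247 for vehicle against WT in edgeR). Of the 18, 3 had all transgenic libraries above WT and 3 below, or 16.7% each, beside 11.3% and 10.2% of all genes.

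Of 13 extracellular antagonists and binding proteins, SOST, sclerostin, a Wnt inhibitor of the antagonist family, stood at 4.82 and 8.47 CPM in AT1R Tg AC1903, at 21.1 and 5.78 CPM in AT1R Tg vehicle and at 1.36 and 0.895 CPM in WT. All transgenic libraries lay above WT, with a log2 difference of 3.58 and SE 0.64 in vehicle that did not pass (adjusted p = 0.146). DCN, decorin, a proteoglycan that binds TGF-beta, stood at 1.25 and 1.84 CPM with AC1903, at 8.28 and 2.36 CPM with vehicle and at 3.05 and 1.90 CPM in WT (adjusted p = 0.602 for AC1903 against vehicle).

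Of 10 other receptors, ACVR1B, a type I receptor for activin, stood at 19.0 and 18.0 CPM in AT1R Tg AC1903, at 10.9 and 10.1 CPM in AT1R Tg vehicle and at 15.3 and 13.2 CPM in WT. The AC1903 libraries were the highest and the vehicle libraries the lowest, with a log2 difference between them of 0.81 and SE 0.21 (adjusted p = 0.538). BMPR2, the type II receptor for bone morphogenetic proteins, stood at 267.0 and 194.2 CPM with AC1903, at 132.9 and 150.7 CPM with vehicle and at 188.5 and 129.0 CPM in WT (adjusted p = 0.568 for AC1903 against vehicle). The 5 other SMAD genes had a median log2 difference of -0.05 in vehicle against WT. Among them SMAD4, the partner of SMAD2 and SMAD3, stood at 34.9 and 32.5 CPM with AC1903, at 28.8 and 27.9 CPM with vehicle and at 31.4 and 27.2 CPM in WT. Of 21 intracellular regulators, TGIF2, a SMAD corepressor, stood at 5.82 and 4.96 CPM with AC1903, at 3.04 and 3.83 CPM with vehicle and at 8.18 and 8 CPM in WT (adjusted p = 0.189 for vehicle against WT).

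The genes whose pattern over the 6 libraries was nearest to TGFB3 were sought among 11975 genes with a symbol and a mean of at least 1 CPM, by the root mean square difference of log2 CPM centred on WT. GDF5 was the nearest, at 0.181 log2 units and a Pearson r of 0.997. It was followed by SYNPR, a synaptic vesicle protein gene, at 0.354 (r = 0.980), LYPD1 at 0.403 (r = 0.992), RUNX2, a transcription factor of osteoblasts, at 0.431 (r = 0.989) and IGSF10 at 0.450 (r = 0.987). These are descriptions over 6 libraries that share a WT baseline. SYNPR stood at 43.5 and 79.9 CPM in AT1R Tg AC1903, at 86.1 and 39.2 CPM in AT1R Tg vehicle and at 4.67 and 7.29 CPM in WT. RUNX2, which is also on the fibroblast and osteogenic list, stood at 30.7 and 37.0 CPM with AC1903, at 39.6 and 26.4 CPM with vehicle and at 2.22 and 3.23 CPM in WT. All 6 genes were higher in vehicle replicate 1 than in vehicle replicate 2 and lowest in WT. The 5 were picked for nearness to TGFB3 over these same libraries, so that shared order follows from the choice. The TGFB1 pattern was nearest to that of NRM, at 0.044 (r = 0.988), and the TGFBR2 pattern to that of DOCK9, at 0.030 (r = 0.998).

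**Figure D5:**
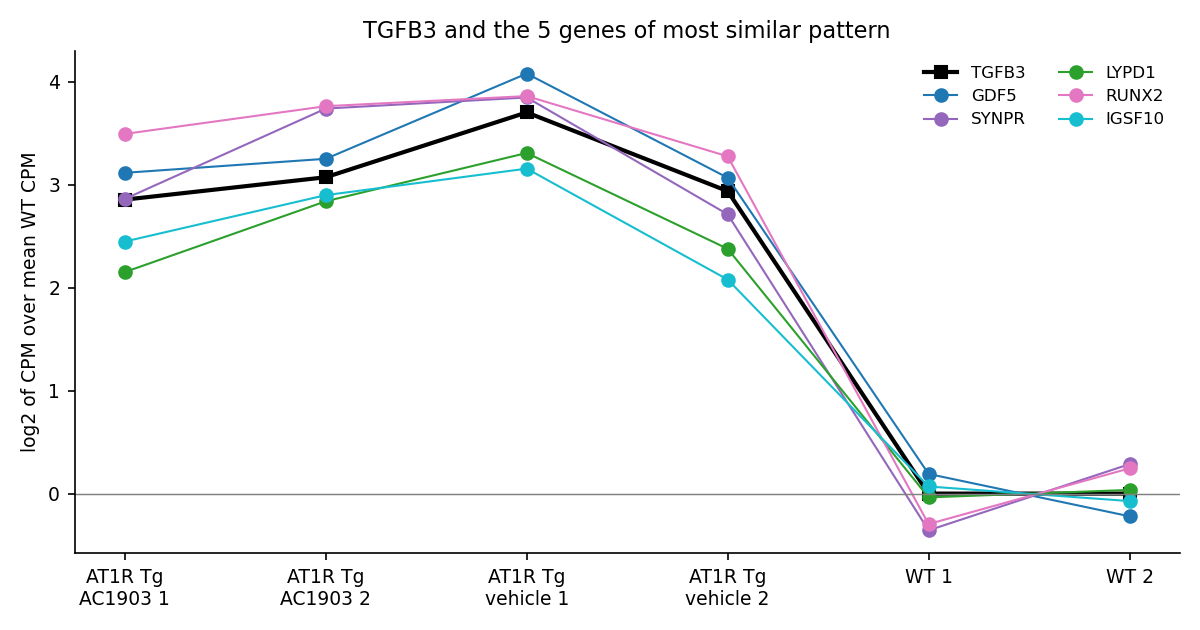
Log2 of CPM over the mean WT CPM for TGFB3 (black squares) and the 5 genes of nearest pattern in each library, AT1R Tg groups left of WT; lines join the values of 1 gene and imply no order of libraries. All 6 genes lie above 2 in each transgenic library and near 0 in WT, a likeness by which the 5 were picked.

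TGFB3 was also set against summed marker levels, since those differed between libraries. These ratios carry the TGFB3 values that chose the family, so their order between transgenic and WT libraries is a description. Per 1000 CPM of podocyte markers TGFB3 stood at 7.42 and 6.60 CPM in AT1R Tg AC1903, at 8.36 and 9.25 CPM in AT1R Tg vehicle and at 0.688 and 0.816 CPM in WT. Per 1000 CPM of proximal tubule markers it stood at 12.7 and 14.9 CPM with AC1903, at 23.6 and 7.07 CPM with vehicle and at 2.67 and 4.28 CPM in WT. On this scale the lowest transgenic library was 1.65-fold above the highest WT library, the smallest of these ratios over the 8 lists, and the largest was 9.79-fold, for mesangial and vascular smooth muscle markers. Per 1000 CPM of the genes listed as fibroblast and osteogenic markers it stood at 79.5 and 83.3 CPM with AC1903, at 72.1 and 76.4 CPM with vehicle and at 19.7 and 16.1 CPM in WT. THY1, SPP1, COL1A1 and ALPL weighed most in that sum in vehicle replicate 1, and which cells carried them was not tested. The libraries hold no measure of which cells carried the TGFB3 transcripts.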

How the data were processed

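Strand-specific polyadenylated RNA libraries from isolated rat glomeruli were read on an Illumina HiSeq instrument, as the labels and the series' design text state. The authors deposited expected counts per Ensembl gene. STAR 2.5.2b, RSEM 1.3.0 and the build Rnor_5.0 are named in the submitters' processing notes. No annotation release was found among the sources. Per the file headers, the authors' comparison tables hold log2 fold changes and adjusted p-values for 2 comparisons, with no tool named.

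The labels gave group, replicate number and age. The members and gene lists were chosen with earlier results of these data known. Symbols came from the authors' tables, which give them for 12321 gene IDs. Of those IDs 154 have more than 1 symbol and 757 share one. Reads that match several genes are split by RSEM, which makes near-identical genes uncertain.

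Expected counts were rounded, filtered with filterByExpr, which left 13426 genes, and scaled by TMM. Comparisons used edgeR's quasi-likelihood test (edgeR 4.0.16, R 4.3.3), as a two-sided test over the 6 libraries (3 residual degrees of freedom), and p-values were adjusted over all genes by Benjamini and Hochberg's method, with a threshold of 0.05. The fitting was tested on simulated counts. The common biological coefficient of variation was 23.0%. The 95% intervals of log2 differences use the fit's SE. Nothing in the labels says that replicates shared a batch, and p-values measure the spread between these libraries. Within each group neither library was a copy of the other: replicate pairs gave a chi-square over its degrees of freedom of 19 in AC1903, 92.8 in vehicle and 53.4 in WT. Pairs from different groups were not checked in this way. Genes of the pathway lists were named where they passed the threshold and otherwise among the 4 of smallest p per list in vehicle against WT or in AC1903 against vehicle. Alternatives were DESeq2 1.42.0, limma-voom (limma 3.58.1), other scalings and filters, 2 groups only, a replicate block, age as a covariate and leaving out each library.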

Additional observations from a re-analysis of the deposited data

How the results depend on the processing

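The count of genes called, 10 in AT1R Tg vehicle against WT, 5 in AT1R Tg AC1903 against WT and 0 in AC1903 against vehicle, depended on the method. With no filter on low counts it was 774, 464 and 114, and with DESeq2 560, 181 and 67. From the 2 groups compared alone it was 4 against WT for vehicle and 21 against WT for AC1903. With age as a covariate it was 4 in vehicle against WT and 1 in AC1903 against vehicle. With the replicate number as a block it was 4, 7 and 2. No pairing by replicate number was seen: correlations of same-numbered deviations across genes were -0.020 between vehicle and WT, 0.005 between AC1903 and WT and -0.041 between AC1903 and vehicle. With 2 libraries per group these cannot exclude a shared batch. Leaving out 1 library each gave 1 to 530 genes (530 without vehicle replicate 1), 1 to 25 and 0 to 4. The count of members called against WT holds TGFB3 alone, whose difference chose the family, so nothing is read from it: it was 1 in both transgenic groups and 0 to 1 when 1 library was left out. In vehicle against WT it was 0 without either WT library. In AC1903 against WT it was 0 without either WT library or either AC1903 library. The cause was not tested.

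The TGFB3 difference from WT, a description, ran from 2.93 to 3.70 for vehicle and from 2.85 to 3.06 for AC1903 over fits without 1 library. Its AC1903 against vehicle difference ran from -0.74 to 0.03, the last without vehicle replicate 1. Signs of small, uncalled differences turned in some fits. With age as a covariate, vehicle against WT gave 0.08 for TGFB2, 0.05 for SMAD7 and -0.07 for the smaller TGFBR1 ID, and AC1903 against vehicle gave 0.00 for TGFB1 and -0.15 for LTBP1. Without 1 library, vehicle against WT ran from -0.22 to 1.70 for the smaller TGFBR1 ID, from -0.49 to 0.30 for TGFBR3, from -0.06 to 0.46 for SMAD3 and from -0.21 to 0.04 for SMAD7. AC1903 against WT ran from -0.50 to 0.06 for LTBP1, from -0.15 to 0.19 for TGFBR2 and from -0.02 to 0.72 for TGFBR3. AC1903 against vehicle ran from -0.49 to 0.06 for TGFB1, from -0.43 to 0.13 for TGFB2, from -0.30 to 0.25 for LTBP1 and from -0.32 to 0.02 for the larger TGFBR1 ID. No member other than TGFB3 passed under any alternative run. Ratios between ligands within a library cannot change with scaling, so the other scalings are no check of them.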
